A study of Bos taurus with 4 samples.

Results

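Transcripts of splicing factors were followed in bovine (Bos taurus) embryos in which KDM5 histone demethylase genes had been knocked down. Splicing factors were taken as the rows of the deposited FPKM table whose bovine symbol starts with 1 of 11 prefixes (SRSF, SF3A, SF3B, SNRP, SNRNP, HNRNP, PRPF, LSM, U2AF, RBMX or CWC), leaving out 1 gene set aside by the rule. The rule used names only, no measured value. It found 83 transcripts of 83 genes among 14517 transcripts in all. FPKM are fragments per kilobase of transcript, scaled to the mapped fragments of the library, so levels of different genes can be set side by side per length.

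The embryos were at the 8/16-cell stage, 3 days after insemination, and were injected as zygotes. The control group (NC, 2 libraries) received negative control siRNAs, and the other group (KDM5_KD, 2 libraries) siRNAs against KDM5A, KDM5B and KDM5C. The second KDM5_KD library carries that name in its title, but under treatment it lists siRNAs for KDM6 genes. Its title decided its group here. No label gives the number of embryos behind a library or says that libraries came from separate batches of embryos, so p-values measure the spread between these libraries, which may be technical. KDM5 enzymes take methyl groups off histone H3 at lysine 4, a mark of active promoters.

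Removal of introns is carried out by the spliceosome, which is assembled anew on each intron from small nuclear ribonucleoproteins (snRNPs). The U1 snRNP recognises the 5′ splice site, U2AF and the U2 snRNP the 3′ splice site and the branch point, and the U4/U6.U5 tri-snRNP then joins and is rearranged into the catalytic form. Each snRNP holds a ring of Sm proteins, or of LSM proteins in U6. SR proteins and hnRNP proteins bind the transcript itself and favour or hinder the use of nearby sites. At the stage sampled, the bovine embryo passes from stored maternal RNA to transcripts of its own genome, which need splicing.

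KDM5A was at 28.4 and 27.1 FPKM in NC replicates 1 and 2 and at 10.5 and 10.1 FPKM in KDM5_KD replicates 1 and 2, or 37.1% of the control level (adjusted p by limma 0.0333). Its log2 fold change of -1.35 stayed between -1.38 and -1.33 without KDM5_KD replicate 1, KDM5_KD replicate 2 or NC replicate 2, but the adjusted p by limma was then 0.179, 0.232 and 0.0625. The call was also lost with the replicate number as a block (adjusted p by limma 0.0591), without a trend (0.0605) and with no filter (0.167). KDM5C was at 28.1 and 40.6 FPKM in NC against 15.1 and 17.8 FPKM in KDM5_KD, a difference that did not pass the threshold (adjusted p by limma 0.123, and 0.0265 without NC replicate 1). KDM5B was not analysed here. The steps of low FPKM values put NC replicate 2 as the deepest library, and the other 3 at 0.682 to 0.802 times its depth. Absolute depth is unknown. Oocyte and cleavage embryo genes such as BMP15 (83.8 to 172 FPKM) and POU5F1 (56.2 to 63.2 FPKM) were present in every library. The 13 transcripts of that list summed to 611 and 493 FPKM in NC and 721 and 799.8 FPKM in KDM5_KD, with 12 positive log2 fold changes (5619 of 8970 over all transcripts tested) and 0 calls. A list of 22 genes drawn up for cumulus and granulosa cells, the cells around the oocyte, summed to 53.2 to 72.1 FPKM in NC and 121 to 144 FPKM in KDM5_KD. It includes matrix genes that are not particular to those cells, such as collagen genes, LUM and DCN. COL1A1 alone had 28.4 and 23.9 FPKM in NC and 47.7 and 35.8 FPKM in KDM5_KD. Of its 15 transcripts tested, with a median level of 3.04 FPKM, 13 had a positive log2 fold change, against 5619 of all 8970 transcripts tested. AMH (-0.42) and TNFAIP6 (-0.05) had negative ones. In both KDM5_KD libraries 12 lay above, against 35.1% of all. In the lowest quartile by level 1706 of 2243 were positive and 1076 lay above. At an unadjusted limma p under 0.05, 11 of the list were higher, against 14.3% of all. At least 2-fold higher were 7, against 4.52% of all, and 0 passed the threshold. LUM, the gene of the list with the smallest p, had 4.02 and 5.12 FPKM in NC and 23.8 and 15.6 FPKM in KDM5_KD (adjusted p by limma 0.0610), while FSHR was listed at 0 in both NC libraries and at 0.0443 FPKM at most, and CYP19A1 stayed at 0.0602 FPKM or less. In bulk samples, fewer cells of a type and less RNA per cell cannot be told apart. The part of the differences of both lists in the results below was not tested.

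Splicing factor transcripts were abundant in all 4 libraries. Of the 83, 82 had a mean of at least 1 FPKM and were tested, and 64 of these lay in the top quartile of all transcripts tested by level, where means start at 28.7 FPKM. Their median level was 88.1 and 87.3 FPKM in NC and 84.4 and 83.0 FPKM in KDM5_KD. Between 33 and 36 of them reached 100 FPKM in any library. The exception on the low side was LSMEM1, a membrane protein gene that shares only the LSM letters with the family, at 0.389 and 0.607 FPKM in NC and 0.758 and 1.31 FPKM in KDM5_KD. Summed, the 83 transcripts held 10891 and 10699 FPKM in NC and 10859 and 10045 FPKM in KDM5_KD. As a share of the FPKM of all mRNA (NM) rows this was 3.80% and 3.84% in NC and 3.75% and 3.53% in KDM5_KD. KDM5_KD replicate 2 was the low library in both measures. As a share of all rows the values were 3.78% and 3.78% in NC and 3.37% and 3.38% in KDM5_KD, so on that measure both knockdown libraries were low.

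**Figure D1:**
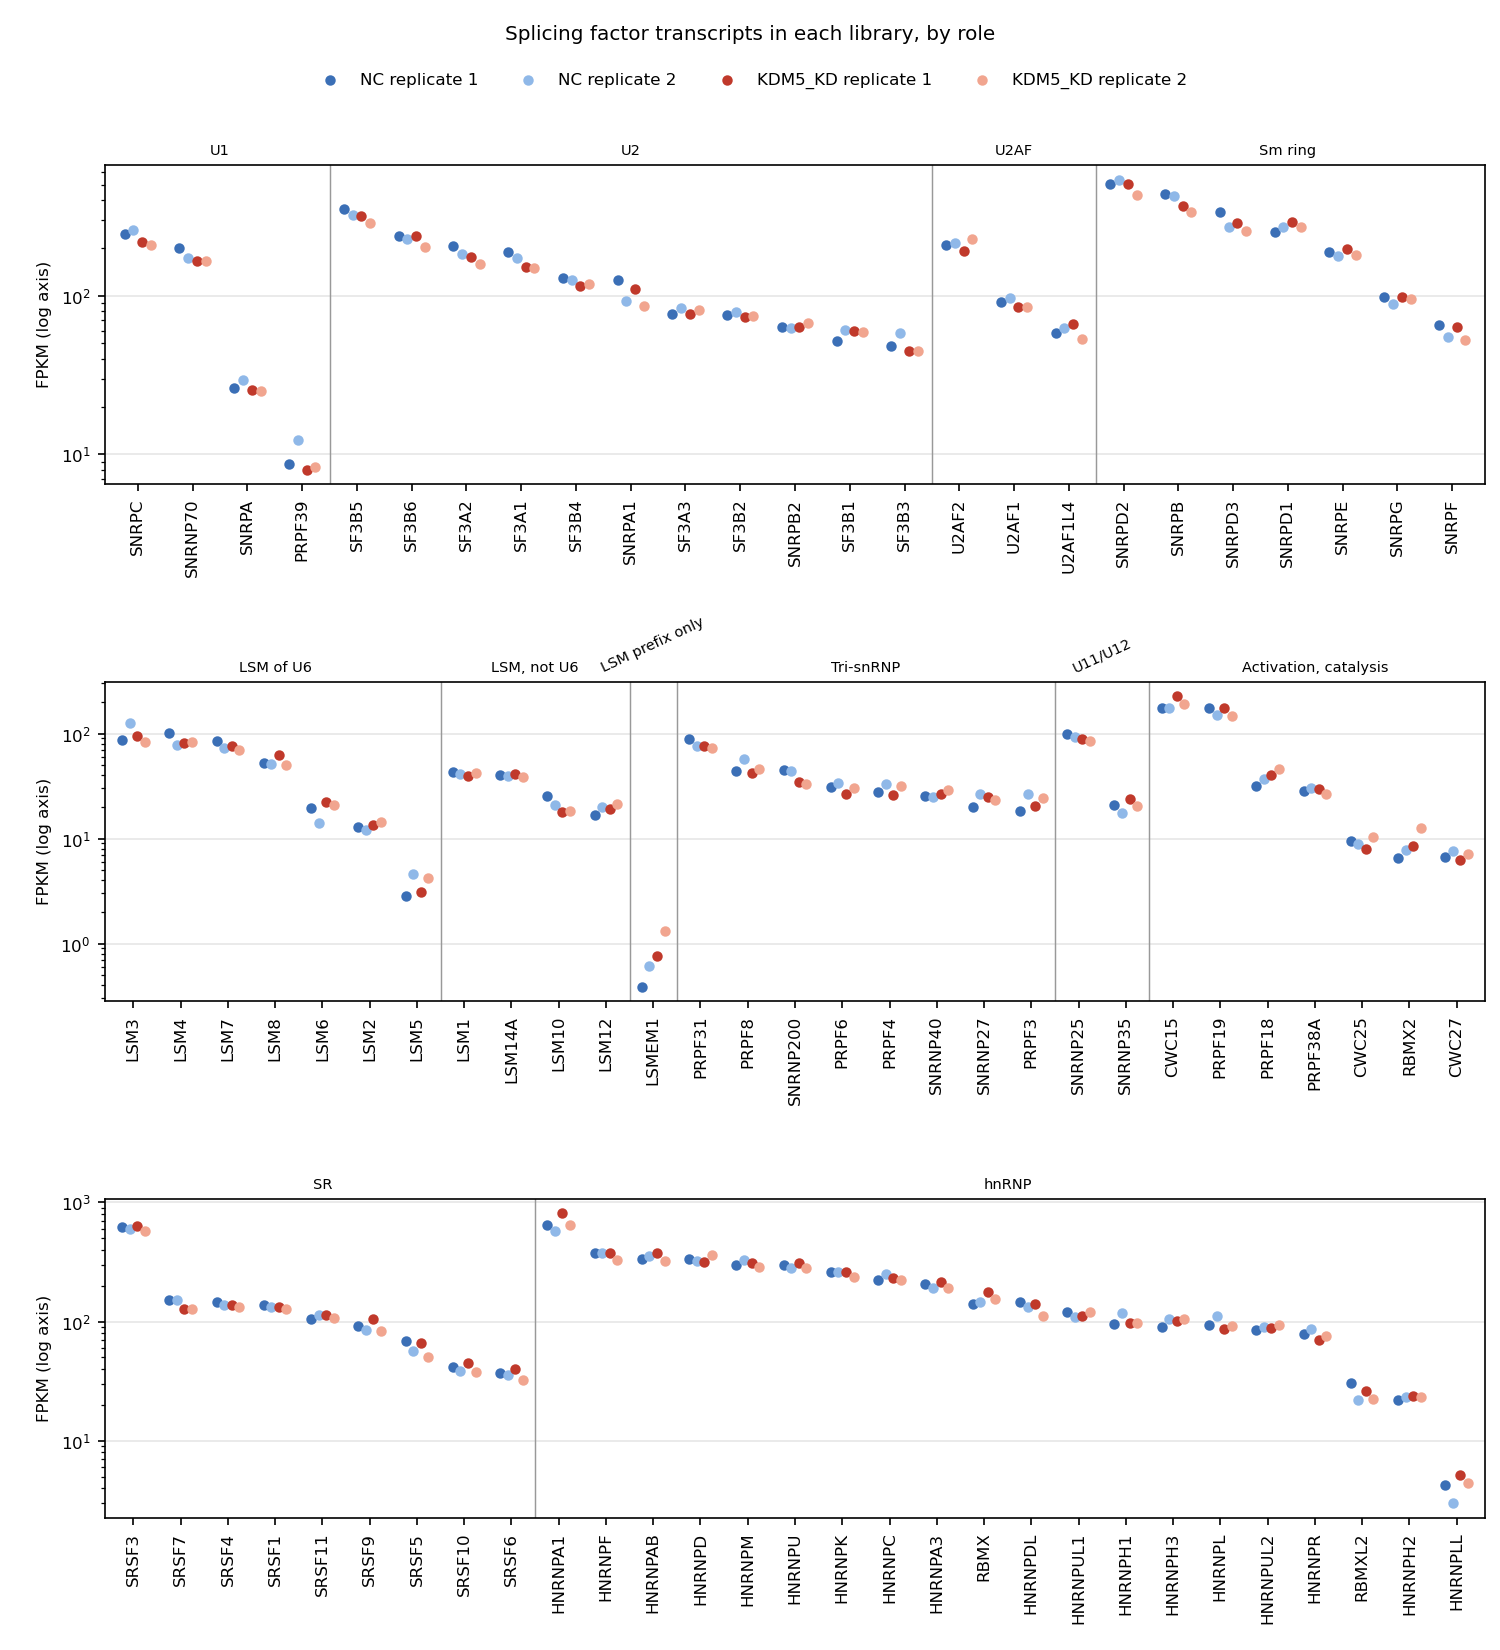
FPKM of each of the 83 transcripts in each library (1 point per library, log axis), grouped by role and ordered by mean level within a group. The 4 points of a gene lie close together against the distance between genes: within the hnRNP group HNRNPA1 was 145 to 191 times HNRNPLL in every library.

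No splicing factor transcript passed the threshold between the groups. Group differences were tested with limma on log2(FPKM + 1), and an adjusted p under 0.05 counted as a call. Among all 8970 transcripts tested, 0.19% were called higher and 0.0892% lower in KDM5_KD, and among the 82 splicing factor transcripts 0 were called in either direction. At an unadjusted limma p under 0.05, 0 of the 82 were higher, against 14.3% of all transcripts, and 2 (SNRNP200 and SNRPB) were lower, against 3.12% of all. Over the top quartile by level the shares were 7.85% higher and 5.53% lower. The smallest limma adjusted p among the 82 was 0.195.

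The differences were small as well as uncalled. Their log2 fold changes ran from -0.40 (SNRNP200) to 0.48 (RBMX2), with a median absolute value of 0.10 against 0.21 over all transcripts and 0.14 over the top quartile. None of the 82 differed 2-fold, while 4.52% of all transcripts were 2-fold or more higher and 0.301% were lower by that much. Over the top quartile these shares were 2.32% and 0.267%. The 95% interval of the log2 fold change lay within 2-fold either way for 81 of the 82 and for 77.6% of all transcripts. Over the top quartile alone that share was 92.6%, and all 64 splicing factor transcripts of that quartile had such an interval. RBMX2 was the exception, with an interval from -0.08 to 1.05. The interval left out 0 for 2 of the 82, again SNRNP200 and SNRPB.

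**Figure D2:**
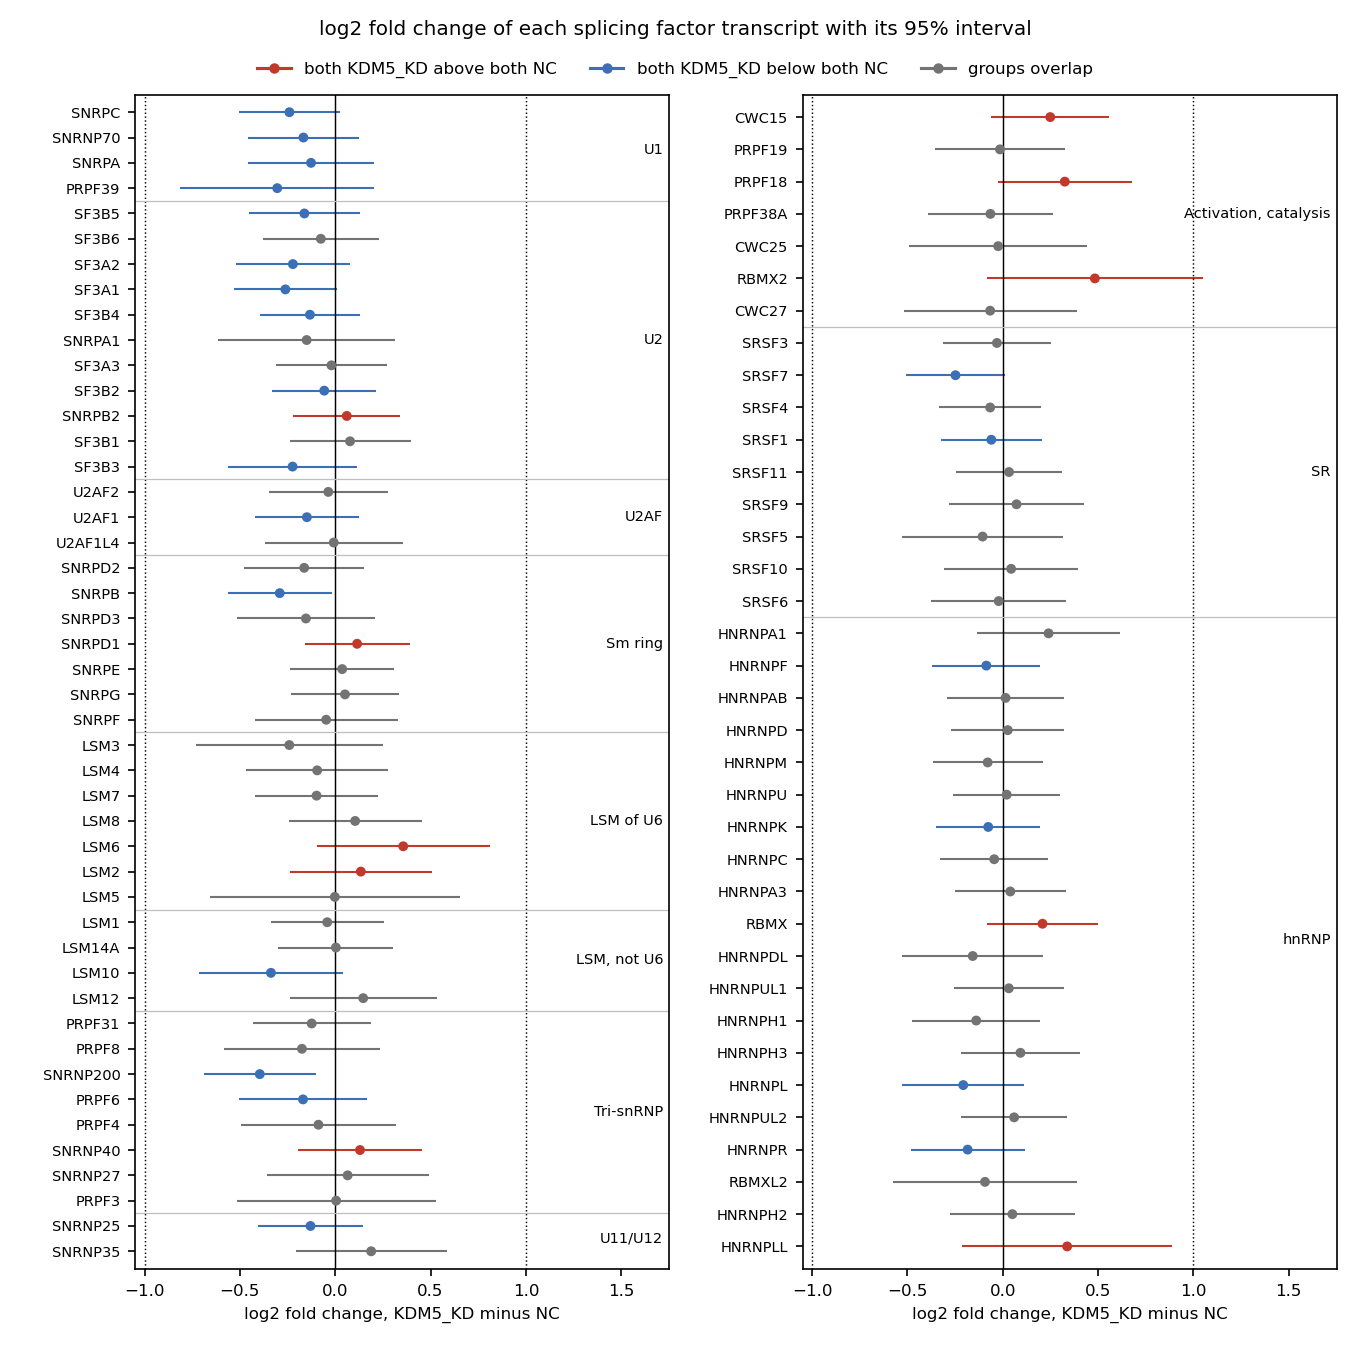
Points are the log2 fold change (KDM5_KD minus NC) of each of the 82 transcripts tested, lines its 95% limma interval, dotted lines a 2-fold difference and colours whether the libraries of the groups overlap. The points lie between -0.40 and 0.48, and the line of RBMX2 is the one that crosses a dotted line.

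Replicates differed from each other about as much as groups did. Over the 82 transcripts, the median absolute difference on the log2(FPKM + 1) scale was 0.13 between the NC libraries and 0.12 between the KDM5_KD libraries. Across groups it ran from 0.12 to 0.14 over the 4 pairs of libraries. Over all transcripts the values were 0.22 and 0.18 within groups and 0.21 to 0.28 across them. The order of the 82 levels was nearly the same everywhere, with Spearman's rho across these transcripts between 0.990 and 0.995 for the 6 pairs of libraries, which share the same genes and lengths.

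**Figure D3:**
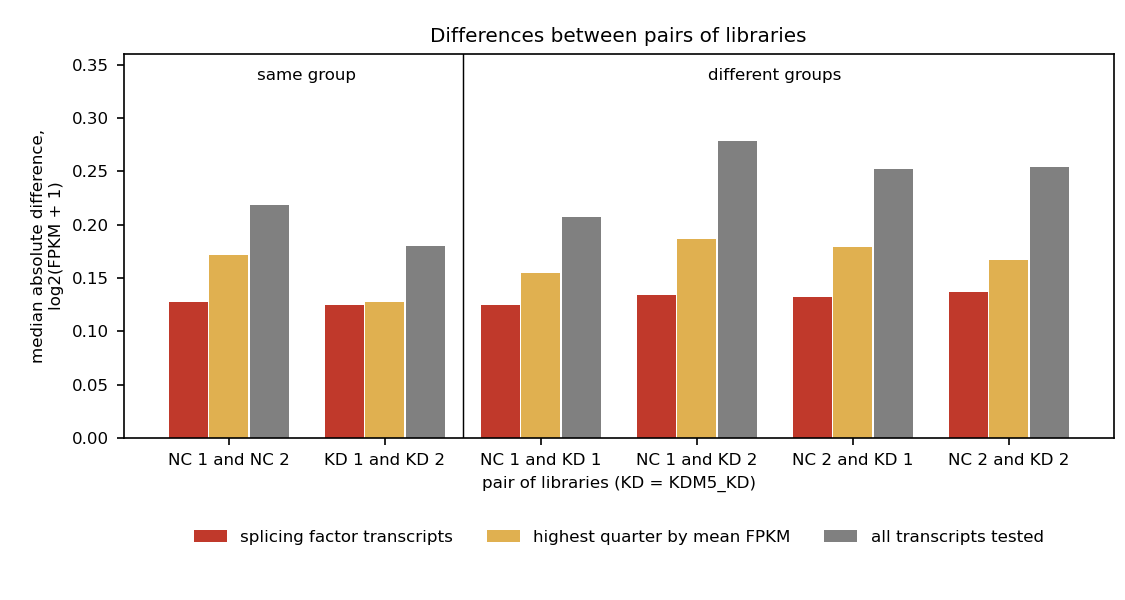
Bars are the median absolute difference of log2(FPKM + 1) between 2 libraries, for the splicing factor transcripts, the top quartile by mean FPKM and all transcripts tested; pairs of the same group stand on the left. The splicing factor bars lie between 0.12 and 0.14 for all 6 pairs.

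More of the small differences were negative than positive. Of the 82 log2 fold changes, 51 were negative and 31 positive, with a median of -0.05 against 0.09 over all transcripts and -0.02 over the top quartile. Both KDM5_KD values lay below both NC values for 22 of the 82 (26.8%), against 15.6% of all transcripts and 24.5% of the top quartile. They lay above both for 10 (12.2%), against 35.1% of all transcripts and 21.0% of the top quartile. Among the 64 of the top quartile, 19 lay below (29.7%) and 5 above (7.81%). The median moved with the libraries kept. It was -0.015 without KDM5_KD replicate 2, -0.023 without NC replicate 1 and -0.022 without NC replicate 2. Without KDM5_KD replicate 1 the median was -0.09. It also moved with the scaling. Dividing each library by its median ratio put the median at -0.16, with 42 transcripts below and 2 above, and moved the median of all transcripts by -0.10. Quantile normalization moved the median of all transcripts by -0.14. Measured from the all-transcript median, the splicing factor median stood at -0.14 with the FPKM as deposited, at -0.15 after median ratio scaling and at -0.015 after quantile normalization. Leaving out 1 library moved the log2 fold change by more than 1.5 times for 16 of the 23 splicing factor genes named by rule. Whichever library was left out, some of the 16 moved this far. The 7 that did not were SNRNP200, SNRPB, SF3A1, SRSF7, SNRPC, U2AF1 and PRPF18.

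**Figure D4:**
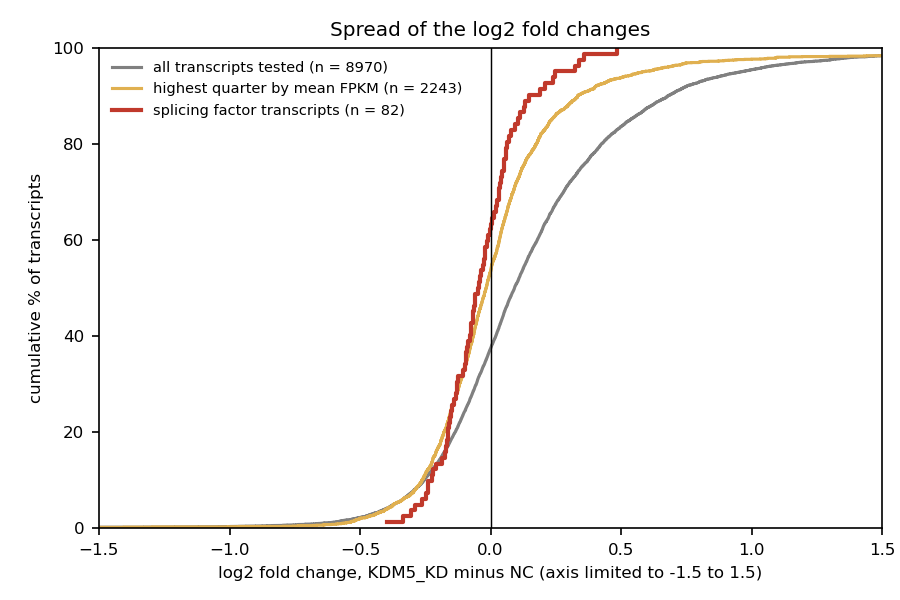
Cumulative share of transcripts (y axis, %) by log2 fold change (x axis, KDM5_KD minus NC) for the 82 splicing factor transcripts, the top quartile by mean FPKM and all 8970 transcripts tested. The curve of the splicing factors is the steepest, running from -0.40 to 0.48.

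The U1 snRNP group was the one in which every member tested was lower in both KDM5_KD libraries than in both NC libraries. It held SNRPC, SNRNP70, SNRPA and PRPF39, and its median log2 fold change was -0.20, with -0.32 after median ratio scaling and -0.19 after quantile normalization. All 4 kept non-overlapping groups under both scalings, and none was called. Of all transcripts 15.6% lay below with the FPKM as deposited, 25.4% after median ratio scaling and 28.3% after quantile normalization. SNRPC, the U1-C protein that helps to fix U1 on the 5′ splice site, had 245 and 257 FPKM in NC and 217 and 208 FPKM in KDM5_KD. SNRNP70, the U1-70K protein that binds U1 RNA, had 198 and 173 FPKM in NC and 164 and 166 FPKM in KDM5_KD. The gap between the groups of SNRNP70 was smaller than the gap between its NC libraries.

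SNRPA, another U1 RNA-binding protein, had 26.1 and 29.4 FPKM in NC and 25.6 and 24.9 FPKM in KDM5_KD. PRPF39, a U1-associated factor, had 8.68 and 12.2 FPKM in NC and 8.02 and 8.31 FPKM in KDM5_KD. For both, NC replicate 2 was the high library and NC replicate 1 lay close to the knockdown values. SNRPC had the smallest p of the 4, a log2 fold change of -0.24 (SE of 0.108, adjusted p by limma 0.322). PRPF39 had the largest difference, -0.30 (SE of 0.209, adjusted p by limma 0.505), and -0.08 without NC replicate 2. Summed, the group stood at 87.3% and 85.7% of its NC mean in the KDM5_KD libraries.

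U2 snRNP proteins were mostly on the same side. The group has 11 transcripts, of which 9 had a negative log2 fold change, 6 lay below in both KDM5_KD libraries and 1 (SNRPB2, which binds U2 RNA) lay above. Over all transcripts 15.6% lay below and 35.1% above, and over the top quartile 24.5% and 21.0%. The median of the U2 group was -0.13. After median ratio scaling the median was -0.24, with all 11 negative, 9 below and 0 above, and after quantile normalization it was -0.11 with 5 below. Of all transcripts 25.4% (median ratio) and 28.3% (quantile) then lay below. The SF3A and SF3B complexes, which clamp U2 onto the branch point, supplied all 6 that lay below with the FPKM as deposited: SF3A1, SF3A2, SF3B2, SF3B3, SF3B4 and SF3B5. None of the 11 was called, and the smallest p of the group belonged to SF3A1.

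SF3A1 had the largest difference of the U2 group. It was at 187 and 172 FPKM in NC against 151 and 148 FPKM in KDM5_KD, a log2 fold change of -0.26 (SE of 0.111, adjusted p by limma 0.2997). SF3A2 was at 206 and 182 FPKM in NC against 174 and 158 FPKM in KDM5_KD. The third subunit, SF3A3, overlapped between groups, at 76.3 and 83.9 FPKM against 76.3 and 81.6 FPKM. So 2 of the 3 SF3A subunits separated the groups and the remaining one did not.

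SF3B5, a small SF3B subunit, was the most abundant transcript of the U2 group, with 352 and 322 FPKM in NC and 317 and 286 FPKM in KDM5_KD (log2 fold change -0.16 with an SE of 0.119, adjusted p by limma 0.533), and -0.09 without KDM5_KD replicate 2. SF3B3 had 47.8 and 57.8 FPKM in NC and 45.0 and 44.7 FPKM in KDM5_KD. SF3B1, the subunit that contacts the branch point and is often mutated in blood cancers, had 52.0 and 60.8 FPKM in NC and 60.0 and 58.8 FPKM in KDM5_KD. The knockdown values of SF3B1 lay inside the control range. Levels within SF3B spanned a wide range although its subunits sit in 1 complex: SF3B5 was 5.58 to 7.38 times SF3B3 in the 4 libraries.

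U2AF reads the 3′ end of the intron, U2AF2 the pyrimidine tract and U2AF1 the AG. U2AF2 was at 209 and 216 FPKM in NC against 190 and 226 FPKM in KDM5_KD, so the knockdown libraries lay on both sides of the controls. U2AF1 was at 90.9 and 96.2 FPKM in NC against 84.4 and 84.2 FPKM in KDM5_KD (log2 fold change -0.15 with an SE of 0.111, adjusted p by limma 0.540). U2AF1L4, a paralog of U2AF1, had 53.3 to 66.6 FPKM with overlapping groups. The log2 fold change of U2AF2 was -0.04, with 0.09 without KDM5_KD replicate 1 and -0.16 without KDM5_KD replicate 2.

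**Figure D5:**
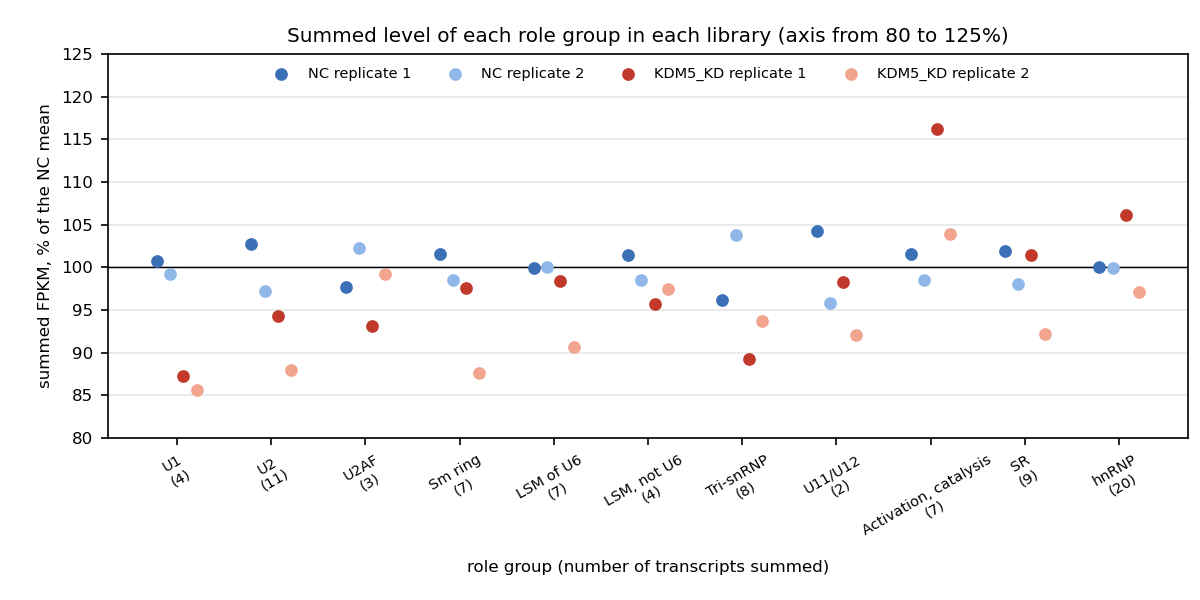
Summed FPKM of each role group in each library, as % of the mean of the 2 NC libraries. The KDM5_KD libraries lie below both NC libraries for U1 (87.3% and 85.7%) and U2 (94.3% and 88.0%), as for the Sm ring, both LSM groups and the tri-snRNP, and above them for the activation and catalysis group (116% and 104%).

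The Sm ring has 7 proteins that are present in equal number in each snRNP, but their transcripts were not equal. SNRPD2 was the most abundant, with 504 and 538 FPKM in NC and 505 and 428 FPKM in KDM5_KD, and SNRPF the least, with 64.9 and 54.7 FPKM in NC and 63.4 and 52.4 FPKM in KDM5_KD. Their ratio was 7.77 to 9.83 in the 4 libraries. Near-identical copies of such short genes elsewhere in the genome can take up or add reads, so these levels are uncertain.

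SNRPB, which encodes the SmB protein, had the largest difference of the ring. It was at 437 and 424 FPKM in NC against 366 and 338 FPKM in KDM5_KD, which is 81.7% of the NC mean. The log2 fold change was -0.29 (SE 0.111), with an interval from -0.56 to -0.02, an unadjusted limma p of 0.0395 and a limma adjusted p of 0.266. SNRPD1 pointed the other way, at 251 and 268 FPKM in NC and 291 and 271 FPKM in KDM5_KD. The other 5 overlapped between groups. SNRPD2 itself had a log2 fold change of -0.16 (SE of 0.129, adjusted p by limma 0.567), with -0.04 without KDM5_KD replicate 2 and -0.28 without KDM5_KD replicate 1.

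The ring of LSM2 to LSM8 binds the end of U6. LSM3 and LSM4 were its most abundant transcripts and LSM5 the lowest in every library, at 2.83 to 4.63 FPKM. LSM6 was higher in both KDM5_KD libraries, with 22.2 and 20.9 FPKM against 19.5 and 14.2 FPKM (log2 fold change 0.36 with an SE of 0.186, adjusted p by limma 0.383). NC replicate 2 was the low library for LSM6, without which the log2 fold change was 0.14. After median ratio scaling or quantile normalization 0 transcripts of this ring lay above, against 25.9% and 20.7% of all transcripts. LSM3 had the reverse pattern, with 127 FPKM in NC replicate 2 and 82.7 to 94.7 FPKM in the other 3 libraries. Its log2 fold change of -0.24 (SE of 0.201, adjusted p by limma 0.587) turned to 0.04 without NC replicate 2 and was -0.14 without KDM5_KD replicate 2.

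Other LSM proteins work outside U6. LSM10, a subunit of the U7 snRNP that trims histone transcripts, was at 25.5 and 21.0 FPKM in NC against 17.8 and 18.4 FPKM in KDM5_KD (log2 fold change -0.34 with an SE of 0.156, adjusted p by limma 0.334), and -0.20 without NC replicate 1. It was the one member of this group whose libraries separated. LSM1, which replaces LSM8 in the ring that serves RNA decay in the cytoplasm, stayed between 39.6 and 42.8 FPKM in the 4 libraries, with a log2 fold change of -0.04, and -0.09 without KDM5_KD replicate 2. LSM14A, a protein of cytoplasmic RNA granules, stayed between 38.4 and 41.5 FPKM. LSM12 lay between 16.7 and 21.3 FPKM, with overlapping groups.

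SNRNP200 had the largest negative difference and the smallest p of all 82. It encodes the helicase that unwinds U4 from U6 when the spliceosome is activated. It was at 44.9 and 44.1 FPKM in NC against 34.3 and 32.8 FPKM in KDM5_KD, which is 75.5% of the NC mean. Both pairs of replicates lay close together and the groups were apart. The log2 fold change was -0.40 (SE 0.121), with an interval from -0.69 to -0.10, an unadjusted limma p of 0.0167 and a limma adjusted p of 0.195. Over the 13 alternatives its log2 fold change ran from -0.50 to -0.37, its smallest limma adjusted p was 0.159, and it was called in none.

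Among the other proteins of the tri-snRNP, differences were smaller. PRPF8, which forms the core around the active site, had 43.5 and 57.7 FPKM in NC and 42.4 and 46.3 FPKM in KDM5_KD, with overlapping groups. PRPF6, which bridges U5 and U4/U6, had 31.0 and 33.5 FPKM in NC and 26.8 and 30.4 FPKM in KDM5_KD. PRPF31, a U4/U6 protein, was the most abundant, at 88.1 and 76.0 FPKM in NC and 76.8 and 73.4 FPKM in KDM5_KD (log2 fold change -0.12 with an SE of 0.127, adjusted p by limma 0.666). The groups of PRPF31 overlapped, its log2 fold change was -0.02 without NC replicate 1 and -0.23 without NC replicate 2, and those of PRPF6 were separated by less than the gap between its KDM5_KD libraries. SNRNP40, a U5 protein, lay slightly above in both KDM5_KD libraries, with 26.6 and 29.1 FPKM against 25.6 and 25.0 FPKM. Of the 8 transcripts of this group, 5 had negative and 3 positive log2 fold changes, and after either scaling 7 were negative.

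The minor spliceosome, which removes a rare class of introns, was represented in these name families by 2 proteins of its U11 snRNP. SNRNP25 had 99.2 and 92.8 FPKM in NC and 89.6 and 85.7 FPKM in KDM5_KD (log2 fold change -0.13 with an SE of 0.113, adjusted p by limma 0.605). SNRNP35 had 20.9 and 17.6 FPKM in NC and 23.7 and 20.4 FPKM in KDM5_KD (log2 fold change 0.19 with an SE of 0.162, adjusted p by limma 0.599). The pair thus pointed in opposite directions, and neither was called. Without NC replicate 1 SNRNP25 was at -0.08, and without KDM5_KD replicate 2 SNRNP35 was at 0.29.

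Proteins of spliceosome activation and the catalytic steps held 3 of the 5 largest positive differences, and 0 of the 7 were called. With the FPKM as deposited 3 lay above and 0 below, against 35.1% and 15.6% of all transcripts. After quantile normalization 2 lay above and 3 below, against 20.7% and 28.3% of all transcripts. RBMX2, a component of the activated spliceosome, was at 6.54 and 7.82 FPKM in NC against 8.53 and 12.6 FPKM in KDM5_KD (log2 fold change 0.48 with an SE of 0.231, adjusted p by limma 0.347). KDM5_KD replicate 2 was the high library, and without it the log2 fold change was 0.23. PRPF18, a factor of the second catalytic step, was at 31.5 and 36.6 FPKM in NC against 40.1 and 45.6 FPKM in KDM5_KD (log2 fold change 0.33 with an SE of 0.144, adjusted p by limma 0.317). CWC15, a protein that joins with the PRPF19 complex, was at 173 and 175 FPKM in NC against 226 and 190.1 FPKM in KDM5_KD (log2 fold change 0.25 with an SE of 0.127, adjusted p by limma 0.377). Here KDM5_KD replicate 1 was the high library, and without it the log2 fold change was 0.13. PRPF19, the ubiquitin ligase at the centre of that complex, overlapped between groups: it had 173 and 149.8 FPKM in NC and 173 and 147 FPKM in KDM5_KD. PRPF38A, CWC25 and CWC27 overlapped between groups, with log2 fold changes from -0.07 to -0.02.

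With the FPKM as deposited, SR proteins had a median absolute log2 fold change of 0.06 over 9 transcripts. It was 0.08 over the hnRNP group and 0.13 over the U2 group. After median ratio scaling, which moved the median of all transcripts by -0.10, all 9 were negative with a median of -0.14. Then 4 lay below, against 25.4% of all transcripts. After quantile normalization the median was -0.06, with 6 negative and 3 below, against 28.3% of all. SRSF3 was the most abundant, at 624 and 601 FPKM in NC and 630 and 571 FPKM in KDM5_KD. Its log2 fold change of -0.03 (SE of 0.116, adjusted p by limma 0.920) had no firm sign: it was 0.04 both after quantile normalization and without KDM5_KD replicate 2. SRSF7 was the one with a clear gap between the groups. It had 152 and 150.3 FPKM in NC and 128 and 127 FPKM in KDM5_KD, a log2 fold change of -0.25 (SE of 0.106, adjusted p by limma 0.304). SRSF1 was also lower in both, but by less than the spread of its knockdown libraries, at 139 and 134 FPKM against 133.6 and 128 FPKM. SRSF4, SRSF5, SRSF6, SRSF9, SRSF10 and SRSF11 overlapped between groups. SRSF2 was not analysed here.

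The hnRNP group, with RBMX and its retrocopy RBMXL2, was the largest, with 20 transcripts. Their log2 fold changes had a median of 0.02, 11 were positive and 9 negative, and 0 were called. In both KDM5_KD libraries 2 lay above and 4 below, against 35.1% and 15.6% of all transcripts. Over the top quartile by level 21.0% lay above and 24.5% below. After median ratio scaling 17 of the 20 were negative and 0 lay above, against 25.9% of all, so the balance of signs depends on the scaling. That scaling moved the median of all transcripts by -0.10. Measured from the all-transcript median, the hnRNP median was -0.07 with the FPKM as deposited. It was -0.09 after median ratio scaling and 0.07 after quantile normalization. HNRNPA1, which binds splicing silencers, was the most abundant of all 83 transcripts. It had 651 and 570 FPKM in NC and 807 and 641 FPKM in KDM5_KD, a log2 fold change of 0.24 (SE of 0.154, adjusted p by limma 0.476). KDM5_KD replicate 1 was high and replicate 2 lay between the controls, so the groups overlapped. Without KDM5_KD replicate 2 its log2 fold change was 0.41, and without KDM5_KD replicate 1 it was 0.07. HNRNPA1 has many near-identical copies, which makes its row uncertain.

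HNRNPLL, a regulator known from lymphocytes, had the largest difference and the lowest level of the group, at 4.25 and 2.98 FPKM in NC and 5.16 and 4.42 FPKM in KDM5_KD (log2 fold change 0.34 with an SE of 0.226, adjusted p by limma 0.490), and 0.14 without NC replicate 2. RBMX, an RNA-binding protein encoded on the X chromosome in mammals, had 141 and 146 FPKM in NC and 177 and 156 FPKM in KDM5_KD, above in both. Its retrocopy RBMXL2 overlapped, at 30.6 and 21.9 FPKM in NC and 26.3 and 22.3 FPKM in KDM5_KD. HNRNPF, HNRNPK, HNRNPL and HNRNPR lay below in both KDM5_KD libraries, with log2 fold changes from -0.21 to -0.08. The most abundant of these, HNRNPF, had 373.4 and 372.9 FPKM in NC and 372.7 and 331 FPKM in KDM5_KD, so 1 library carried its difference. HNRNPC, HNRNPU, HNRNPD, HNRNPM and HNRNPAB, all at 222 FPKM or more in every library, overlapped between groups. HNRNPA2B1 was not analysed here.

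Among splicing genes outside these name families, 0 of 105 transcripts were called by limma, from 5 lists of 123 genes, and at an unadjusted p under 0.05 there were 3 higher and 6 lower, against 14.3% and 3.12% of all transcripts. Their median log2 fold change was -0.05, and 13 lay above and 27 below in both KDM5_KD libraries, against 35.1% and 15.6% of all transcripts. Over the top quartile by level these shares were 21.0% and 24.5%, with a median of -0.02. The median level of the 105 was 36.9 FPKM. Other spliceosome proteins, with a median level of 37.0 FPKM, had 1 above and 15 below of 49 and a median log2 fold change of -0.07. The largest difference there was that of a PUF60 transcript (NM_001046133), which encodes a U2AF-like protein. It had 27.4 and 25.98 FPKM in NC and 15.7 and 19.8 FPKM in KDM5_KD (log2 fold change -0.57 with an SE of 0.163, adjusted p by limma 0.177), and 3 other rows of the gene had log2 fold changes from -0.39 to -0.07.

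Proteins that load Sm rings onto snRNAs, led by the SMN complex, had a median of 0.01 over 11 transcripts. Of these, 1 lay above and 2 below, against 35.1% and 15.6% of all transcripts. GEMIN6, a subunit of that complex, was the one above, at 5.87 and 8.11 FPKM in NC and 9.67 and 10.1 FPKM in KDM5_KD (adjusted p by limma 0.317). Kinases that phosphorylate SR proteins had 3 above and 0 below of 5, against 35.1% and 15.6% of all transcripts. CLK2, one of these kinases, had 17.7 and 24.1 FPKM in NC and 25.6 and 35.1 FPKM in KDM5_KD (log2 fold change 0.52 with an SE of 0.217, adjusted p by limma 0.297), and 0.30 without KDM5_KD replicate 2. Proteins of the exon junction complex, which marks spliced junctions, had a median level of 173 FPKM. Of its 10 transcripts, 1 lay above and 2 below, against 35.1% and 15.6% of all and 21.0% and 24.5% of the top quartile. UPF3B had the largest difference of this complex, 0.23 (SE of 0.299, adjusted p by limma 0.736), with overlapping groups. It was -0.12 without NC replicate 1 and -0.05 without KDM5_KD replicate 2.

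Other regulators of splicing had 7 above and 8 below of 30, against the same 35.1% and 15.6%. PTBP2, a neuronal relative of PTBP1, had the largest log2 fold change of these lists, 1.34 (SE of 0.806, adjusted p by limma 0.448). It rested on 1 library: KDM5_KD replicate 1 had 10.6 FPKM, and the other 3 libraries had 0.763 to 0.821 FPKM. Without that library its log2 fold change was -0.02.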

How the data were processed

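Polyadenylated RNA was sequenced from 4 libraries. The authors deposited FPKM values per RefSeq transcript, 1 column per library. The submitters' processing notes name Trimmomatic, HISAT2, featureCounts and Cufflinks without versions; the genome build is not given in the sources used here, so no positions are printed. Values above 0 go as low as 4.83e-141 FPKM, so they are estimates, and no count model was used. Symbols came from a RefSeq table of assembly ARS-UCD2.0, which matched 14295 of 14517 accessions. How reads shared by near-identical or overlapping genes were assigned is not given in the sources used here.

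All transcripts with a mean of at least 1 FPKM over the 4 libraries (8970) were compared between groups after a log2(FPKM + 1) transform; the fit used limma 3.58.1 under R 4.3.3 (lmFit, eBayes with trend, no covariates, two-sided), adjusted by Benjamini-Hochberg over all of them. Fold changes are on that scale, which understates low transcripts. The fit was also run on simulated data with planted differences of at least 2-fold. Whether it calls differences as small as those of the splicing factors was not tested. Plots were drawn with matplotlib 3.10.9, and tables made with pandas 2.3.3 under Python 3.11.15.

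Named genes were, by rule, the 5 largest differences in each direction, the most abundant and the most different transcript of each role group, the most different transcript of each other list, transcripts under a mean of 1 FPKM and the siRNA targets; further genes were added after their values were seen. Members and lists were chosen with earlier results of these data known. Alternatives were a pseudocount of 0.1, no filter (rows at 0 in all libraries left out) or a mean of at least 5 FPKM, median ratio scaling, quantile normalization, eBayes without a trend or robust, the replicate number as a block, rows summed by symbol, and leaving out each library.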

Additional observations from a re-analysis of the deposited data

How the results depend on the processing

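Over the 13 alternatives, 0 of the splicing factor transcripts were called higher or lower, and the smallest limma adjusted p of any of them was 0.142 (LSM3). With the replicate block, 0 were called and the median log2 fold change stayed at -0.05; libraries with the same number share only that number, and their deviations from the group means correlated at 0.229 over all transcripts. Median ratio scaling left 2 above and 42 below with a median of -0.16; over all transcripts 25.9% were then above and 25.4% below. Leaving out 1 library at a time, which loosens the condition on the other group, gave 17 to 28 above (20.7% to 34.1%, against 45.0% to 50% of all transcripts), 30 to 44 below (36.6% to 53.7%, against 25.4% to 28.9%) and a median from -0.088 (without KDM5_KD replicate 1) to -0.015 (without KDM5_KD replicate 2). In at least 1 of these 4 fits 41 of the 82 had the opposite sign, and 37 kept their sign in all 13 alternatives. Among the genes named by rule the sign changed for 6: over these 4 fits the log2 fold change ran from -0.088 to 0.0042 for LSM1 and from -0.16 to 0.088 for U2AF2 (positive without KDM5_KD replicate 1), from -0.10 to 0.040 for SRSF3 (positive without KDM5_KD replicate 2), from -0.52 to 0.038 for LSM3 (positive without NC replicate 2), from -0.024 to 2.70 for PTBP2 (negative without KDM5_KD replicate 1) and from -0.12 to 0.59 for UPF3B (negative at -0.045 without KDM5_KD replicate 2, and without NC replicate 1). SRSF3 was also at 0.036 after quantile normalization. KDM5A lost the threshold in 6 alternatives, the replicate block (limma adjusted p of 0.0591) among them, and KDM5C passed it without NC replicate 1 (limma adjusted p of 0.0265). The cause of these changes was not tested. The number of reads behind a value is unknown, and no limit of detection was computed.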

Other observations

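A few splicing genes outside the name families were picked after their values were seen and are given as values. EFTUD2, the U5 GTPase that works beside SNRNP200 and PRPF8, had 36.04 and 36.7 FPKM in NC and 29.5 and 28.9 FPKM in KDM5_KD (log2 fold change -0.31, limma adjusted p of 0.281). PTBP1, a repressor of many exons, has 2 rows, and both were lower in each KDM5_KD library than in either NC library. One went from 127 and 119 FPKM in NC to 90.3 and 80.1 FPKM in KDM5_KD (log2 fold change -0.53, limma adjusted p of 0.133), the other from 169 and 142 FPKM to 134 and 122 FPKM (log2 fold change -0.28, limma adjusted p of 0.347). The muscleblind genes, splicing regulators linked to cell differentiation, had positive log2 fold changes, at lower levels, where most transcripts had one. In the lowest quartile by level 1706 of 2243 transcripts were positive, and in the next quartile 1549 of 2242. MBNL1 had 1.26 and 1.29 FPKM in NC and 3.43 and 2.16 FPKM in KDM5_KD, MBNL2 had 2.66 and 1.96 FPKM against 4.44 and 5.89 FPKM, and MBNL3 had 5.22 and 7.59 FPKM against 8.32 and 12.0 FPKM. None of these transcripts passed the threshold, with limma adjusted p of 0.133 to 0.347.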
